A study of Mus musculus with 12 samples.

Results

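Across the genome of a KDM6A-WT pancreatic cancer line of a female mouse, 216 large domains of H3K4me1 held no H3K4me1 region in either of the KDM6A-KO lines, one female and one male. Domains were made from the deposited H3K4me1 list of female WT by joining regions at most 12500 bp apart and keeping stretches above 20 kb. This gave 5197 domains, and the 216 without a single overlapping base of either KO list were 4.16% of them. Of the rest, 4414 held regions of both KO lists, 511 of male KO only and 56 of female KO only. The members were thus chosen by measured values, the H3K4me1 regions of female WT, female KO and male KO, and their size and their absence from KO are given as a description. Taking each KO list without regard to the other, 14.0% of the 5197 domains held no region of female KO and 5.23% none of male KO. Both shares include the 216. The female KO list was the shorter KO list, and the part of list size in these shares was not tested.

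The libraries were ChIP-seq of mouse pancreatic tumour lines grown without treatment in F12/DMEM with EGF, with H3K4me1 listed for female KDM6A-WT, female KDM6A-KO, male KDM6A-WT and male KDM6A-KO. H3K27ac, H3K4me3 and H3K27me3 were listed for female WT only, and KDM6A and MLL4 for female WT and female KO. Every line, WT included, carries a label naming a tumour null for K6A as its origin, and the words KO and WT follow the genotype label. Each group was 1 library of 1 line, so genotype cannot be told apart from any other difference between lines, and no p-value was computed. Reads inside the listed regions ranged from 108165 to 17526099 over the 11 lists, while sequencing depth itself is unknown. The H3K4me1 lists held 56076 regions in female WT, 35041 in female KO, 64247 in male WT and 49780 in male KO. Their reads were 9956349, 6639207, 14411335 and 10809880 in that order. Brackets after a share hold exact Clopper-Pearson 95% intervals over domains, which are not replicates; they cover counting error only.

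H3K4me1 marks enhancers, both those in use and those held ready. It is placed in large part by MLL3 and MLL4 (KMT2D), the methyltransferases of a complex that also contains KDM6A, a demethylase of the repressive mark H3K27me3. An enhancer with H3K27ac is usually called active, one with H3K4me1 alone primed, and one with H3K4me1 and H3K27me3 poised, while H3K4me3 is found at promoters. Long runs of H3K4me1 over many kilobases are typical of regulatory neighbourhoods with several enhancers.

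Most of the 216 domains carried H3K4me1 without the marks of active elements. H3K27ac of the same line lay on 65 of them, 30.1% [24.1 to 36.7], where it lay on 90.1% of all 5197 domains and on 97.3% [96.8 to 97.8] of those held in both KO lists. H3K4me3 lay on 30 of them, 13.9% [9.57 to 19.2], against 83.4% of all domains and 92.2% [91.3 to 92.9] of those held in both. H3K27me3 lay on 67 of them, 31.0% [24.9 to 37.6], against 25.2% of all domains and 24.9% [23.6 to 26.2] of those held in both. The male WT line held H3K4me1 in 195 of the 216, 90.3% [85.5 to 93.9], a lower share than the 99.0% of all domains and the 99.7% of those held in both. For H3K27ac, domains held in 1 KO list lay between the extremes, with the mark on 56.4% [51.9 to 60.7] of those found in male KO only and 57.1% [43.2 to 70.3] of those found in female KO only.

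**Figure D1:**
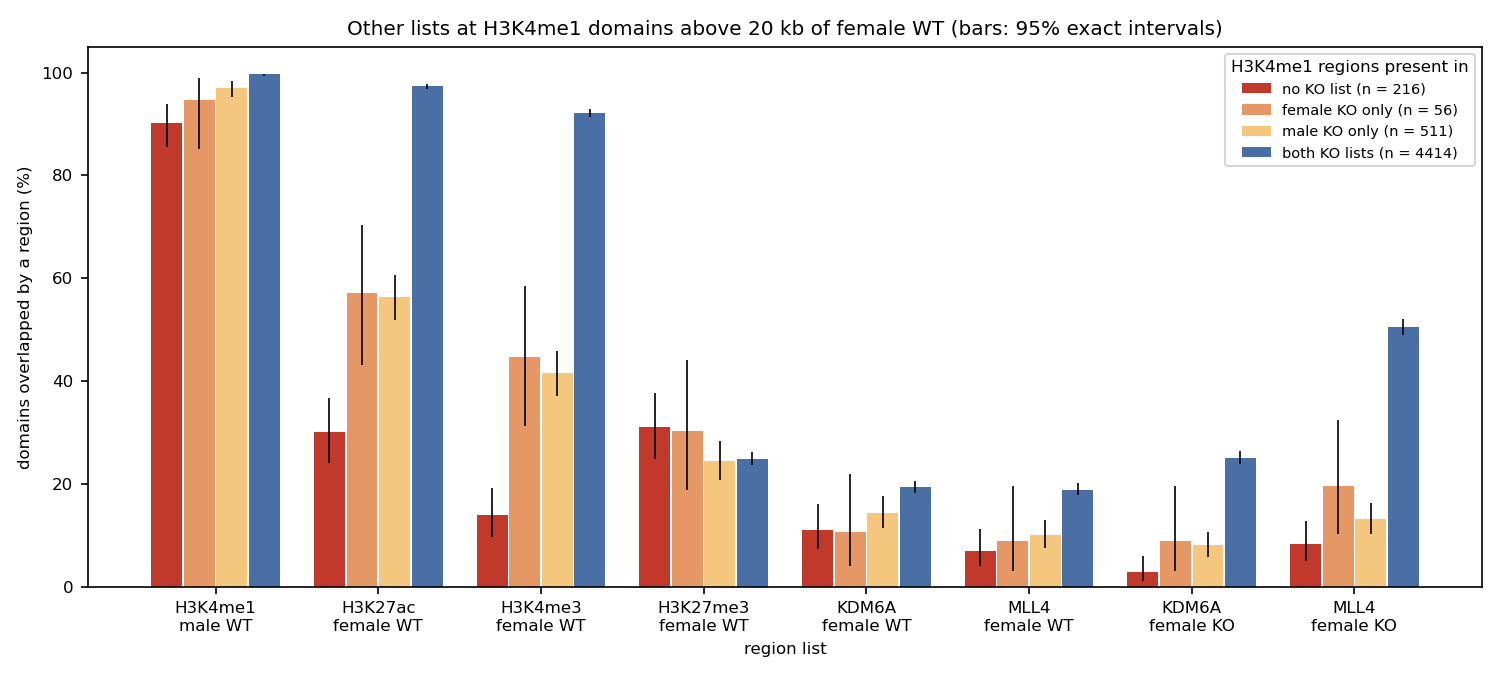
Share of female WT H3K4me1 domains above 20 kb (vertical axis, %) overlapped by a region of each other list (horizontal axis), by the KO lists in which the domain held H3K4me1; whiskers are exact 95% intervals over domains. H3K27ac falls from 97.3% of the domains held in both KO lists to 30.1% of those in neither, while H3K27me3 stays between 24.5% and 31.0% in all 4 classes.

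The members were mostly short for this class, with a few long exceptions. Their median length was 27.1 kb (quartiles 23.6 and 34.5 kb), against 39.6 kb for the domains held in both KO lists. The length covered by H3K4me1 regions had a median of 14.0 kb and ranged from 4.8 to 192.8 kb. A member joined a median of 4 regions, and its longest single region had a median of 5.80 kb. H3K4me1 reads per covered kb had a median of 37.1, against 42.1 in the domains held in both. Only 4 members were longer than 100 kb, and these 4 held 13.6% of the 3.66 Mb covered in all members. At the border of the rule, the 3 shortest members measured 20.2 kb each and covered 5.0, 11.2 and 13.2 kb. The 3 longest KO-free joined stretches that fell short of the rule measured 20 kb and covered 9.2, 7.8 and 7.8 kb. Absence from both KO lists was more common below the length minimum. Of the 16493 stretches of 20 kb or less, 5377, or 32.6%, held no region of either KO list.

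The member with the largest covered length lay on chromosome 7, 81480401 to 81710200 (mm9). Female WT covered 192.8 of its 229.8 kb with 21 regions and 9576 reads, and male WT covered 91.1% of the same bases. Neither KO list had a region within 706.2 kb of it. Only 15.2 kb carried H3K27ac, in 4 regions spread over the domain, and 5.40 kb carried H3K4me3 near one end. KDM6A and MLL4 of female WT each had 1 region inside it, with 39 and 35 reads, and neither antibody had a region there in female KO.

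The second lay on chromosome 4, 99766801 to 100002200, with 166.0 of 235.4 kb covered and 7186 reads in female WT. Male WT covered 46.6% of that length. A single H3K27ac region of 4.20 kb and 1.0 kb of H3K4me3 were all it held of the other marks, with no H3K27me3, KDM6A or MLL4. Within 1 Mb of its start stood 3 more members, at 100021001 to 100080800, 100423801 to 100487400 and 100505801 to 100561200, covering 40.4, 31.0 and 34.8 kb. The share covered in male WT was 46.6%, 19.8%, 41.3% and 0% for the 4 in that order. Another female WT domain between them, 100189601 to 100213000, was found in male KO only, where 1.80 of its 5.40 kb were covered.

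The third, on chromosome 19, 36692401 to 36816400, had no H3K27ac and no H3K4me3. H3K27me3 covered 22.6 of its 86.2 kb, and KDM6A and MLL4 of female WT were listed in it with 51 and 32 reads. The fourth, on chromosome 4 at 6768401 to 6888800, covered 53.6 kb, with 4.20 kb of H3K27ac and 74.6% of the covered length in male WT. The remaining 6 of the 10 leading members covered 32.4 to 43.2 kb. They lay on chromosomes 11 (81809201 to 81855400 and 67326801 to 67378400), 4 (100021001, 100505801 and 113993401 as starts) and 7 (68828201 to 68909000).

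**Figure D2:**
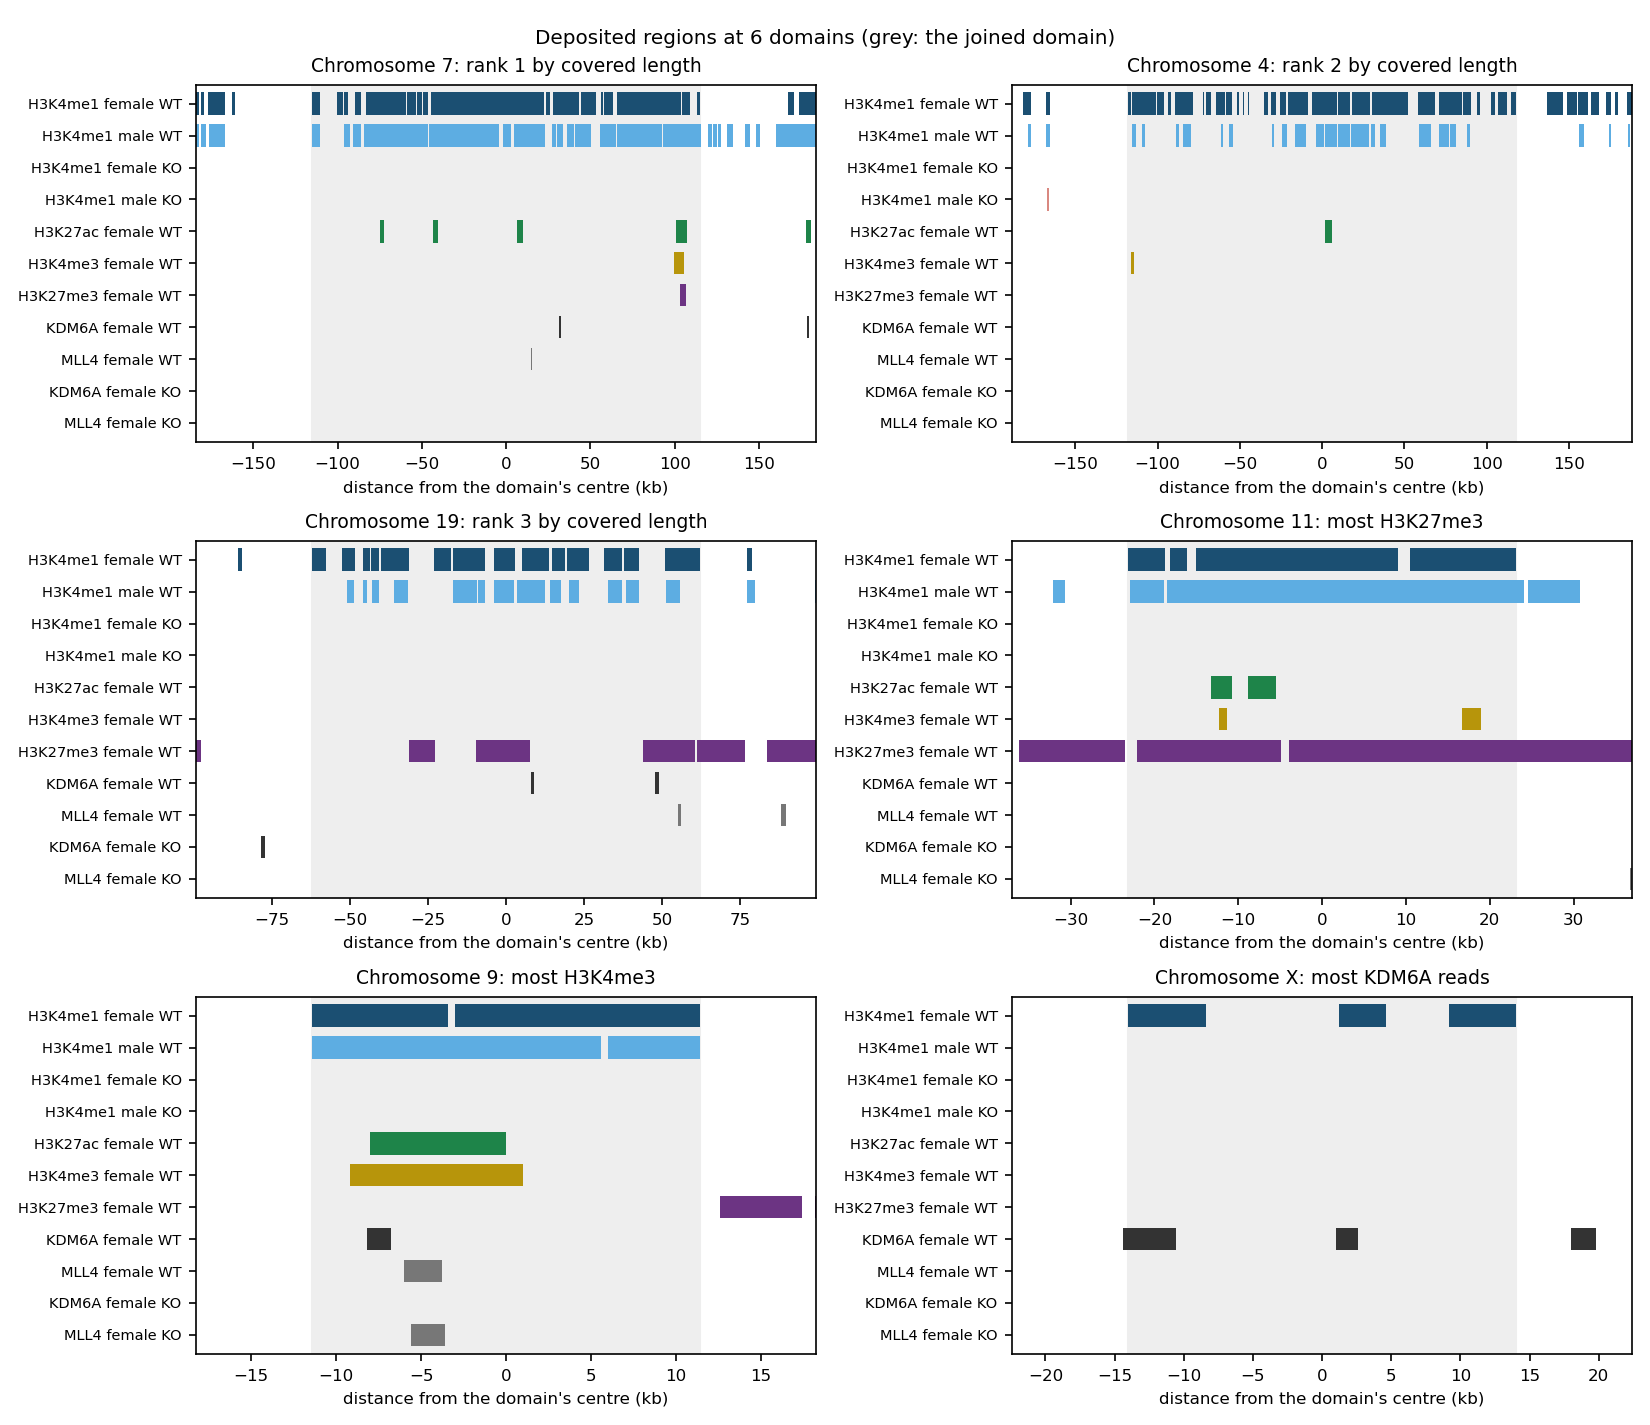
Deposited regions of all 11 lists (rows) around 6 members, by distance from the domain's centre in kb; grey shows the joined domain. The KO rows of H3K4me1 are empty inside every grey area by the rule. Male WT has regions in the domain in 5 of the 6 panels and none on chromosome X. Its part of the female WT covered length is 46.6% on chromosome 4, 61.0% on chromosome 19 and up to 99.1% on chromosome 11. H3K27ac has no region in the domains of chromosomes 19 and X and its longest single region within a domain on chromosome 9.

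Sorted by the marks of female WT, most members carried H3K4me1 with no further mark, with H3K27me3 alone or with H3K27ac alone. The other classes were smaller, and 21 members held both H3K27ac and H3K27me3. The largest class, 101 members or 46.8% [39.96 to 53.65], carried none of H3K27ac, H3K4me3 and H3K27me3. Among the domains held in both KO lists this class made up 1.495% [1.16 to 1.90]. It was also common in domains held in 1 KO list, with 29.0% [25.1 to 33.1] for male KO only and 25% [14.4 to 38.4] for female KO only. H3K27me3 without the other marks was found in 38 members, 17.6% [12.8 to 23.3], against 0.249% [0.124 to 0.445] of those held in both. That state made up 7.24% of the domains found in male KO only and 5.36% of those found in female KO only. H3K27ac alone was found in 34 members, 15.7% [11.2 to 21.3], against 5.28% [4.64 to 5.98] of those held in both. This state made up 19.2% of the domains found in male KO only and 16.1% of those found in female KO only. The pairing of H3K27ac with H3K4me3, with or without H3K27me3, was found in 18 members; in the domains held in both it was the main state, with 67.8% without and 23.4% with H3K27me3.

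**Figure D3:**
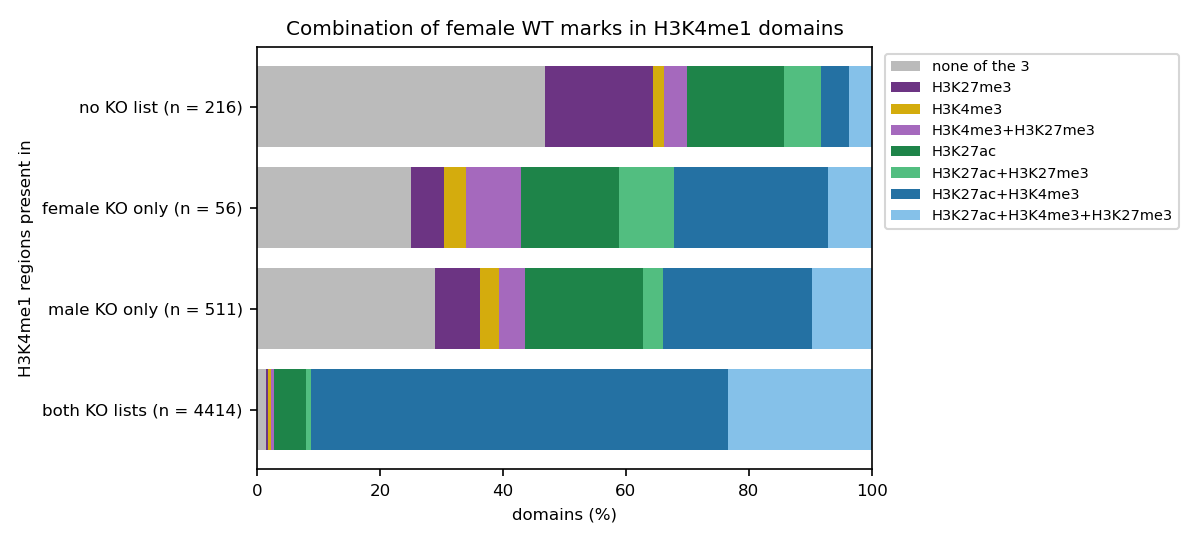
Share of domains (horizontal axis, %) with each combination of H3K27ac, H3K4me3 and H3K27me3 of female WT, by the KO lists that held H3K4me1 in the domain (vertical axis). Grey, none of the 3, takes 46.8% in the domains absent from both KO lists and 1.495% in those held in both. It takes 29.0% in the domains found in male KO only and 25% in those found in female KO only.

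Where H3K27ac was present in a member, it was small and weak within its list. The 65 members with H3K27ac had a median of 3 kb covered by it, 17.8% of their H3K4me1 length, against 9.80 kb and 42.3% for the domains held in both KO lists. Summed over all members, H3K27ac lay on 6.80% of the H3K4me1 bases, against 43.7% in the domains held in both. The 92 H3K27ac regions met by members had a median of 75 reads and 30.3 reads per kb, against 136 reads and 45.0 per kb in the whole list. After the chromosome 7 domain described above, the most H3K27ac was found on chromosome 6, 12816401 to 12845800, with 9.20 of 13.6 kb, followed by chromosome 1, 132716601 to 132739200, with 9 of 10 kb. Chromosome 13, 101207801 to 101235000, had 8.40 kb and chromosome 5, 87418001 to 87460800, had 7.80 kb. These 4 were covered in male WT over 95.6% to 100% of their H3K4me1 length. They covered 10 to 18 kb with H3K4me1, so the members richest in H3K27ac, other than the one on chromosome 7, were not among the 10 largest.

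H3K4me3 in a member was mostly short. The 30 members that held it had a median of 1.90 kb of it, against 6.40 kb in the domains held in both KO lists, and the 34 H3K4me3 regions met had a median of 51.4 reads per kb against 131 in the whole list. The clearest exception was chromosome 9, 40123001 to 40145800. There 2 H3K4me1 regions covered 22.4 of 22.8 kb, H3K4me3 covered 9.80 kb with 1455 reads and H3K27ac 7.60 kb with 588 reads. It was also listed for KDM6A (46 reads) and MLL4 (62 reads) in female WT, and for MLL4 (46 reads) in female KO. Male WT covered 98.2% of it, and the nearest KO H3K4me1 region was 75.2 kb away. On chromosome 14, 37910801 to 37934400, H3K4me3 covered 4.20 kb together with 2.20 kb of H3K27ac and 2 kb of H3K27me3, and male WT had no region.

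H3K27me3 overlapped members and the domains held in both KO lists at shares whose intervals overlap, and its median part of the covered length was larger in the members that held it. In the 67 members with the mark, the median part of the H3K4me1 length inside H3K27me3 was 39.3%, against 12.2% in the 1099 domains held in both. At least 50% of the H3K4me1 length lay in H3K27me3 in 28 members, 13.0% [8.79 to 18.2], against 2.81% [2.34 to 3.34]. Over all members, 14.3% of the H3K4me1 bases lay in H3K27me3, against 4.10% in the domains held in both. Domains held in 1 KO list lay between, with 11.8% for male KO only and 8.16% for female KO only. The leading case, chromosome 11, 81809201 to 81855400, had H3K27me3 over 41.2 of its 43.2 kb of H3K4me1, along with 6 kb of H3K27ac and 3.20 kb of H3K4me3. Male WT covered 99.1% of it. Chromosome 6, 100654001 to 100685200, and chromosome 9, 103123801 to 103160800, followed with 25.4 kb of H3K27me3 each, and both also held H3K27ac and H3K4me3. Chromosome 1, 168184201 to 168244600, had 23.2 of 26.4 kb in H3K27me3 with a single H3K4me3 stretch of 1.40 kb and no H3K27ac. In these 4 domains the repressive mark and H3K4me1 were listed over the same bases, in a population of cells in which cells with one or the other cannot be told apart from cells with both.

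The differences in H3K27ac were present in each length class and in each read density class, with the 2 splits made separately. Domains were not matched within a class. Among domains of 20 to 30 kb, H3K27ac lay on 28.1% [20.8 to 36.5] of the 135 members and 94.7% [93.4 to 95.8] of the 1422 domains held in both. Above 50 kb the values were 52.6% [28.9 to 75.6] of 19 and 99.4% of 1601. H3K4me1 reads per covered kb moved with it: in the lowest of 3 density classes (up to 38.4 reads per kb) 18.0% [11.7 to 26.0] of 122 members held H3K27ac, and in the highest (above 45.1) 62.9% [44.9 to 78.5] of 35. The domains held in both gave 94.7% and 99.0% in those classes. H3K27me3 overlapped 57.9% [33.5 to 79.7] of the 19 members above 50 kb against 30.7% of the domains held in both, and 28.1% against 20.3% at 20 to 30 kb. In the highest density class it overlapped 51.4% [34.0 to 68.6] of the members against 28.3% [26.1 to 30.6], and in the lowest 24.6% against 23.2%. The part of read density in the absence from KO was not tested. For H3K27me3, at least 50% of the H3K4me1 length was covered in 10.7% [5.80 to 17.5] of the low-density members against 3.64% [2.70 to 4.78], and in 22.9% [10.4 to 40.1] of the high-density ones against 2.62% [1.89 to 3.54].

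**Figure D4:**
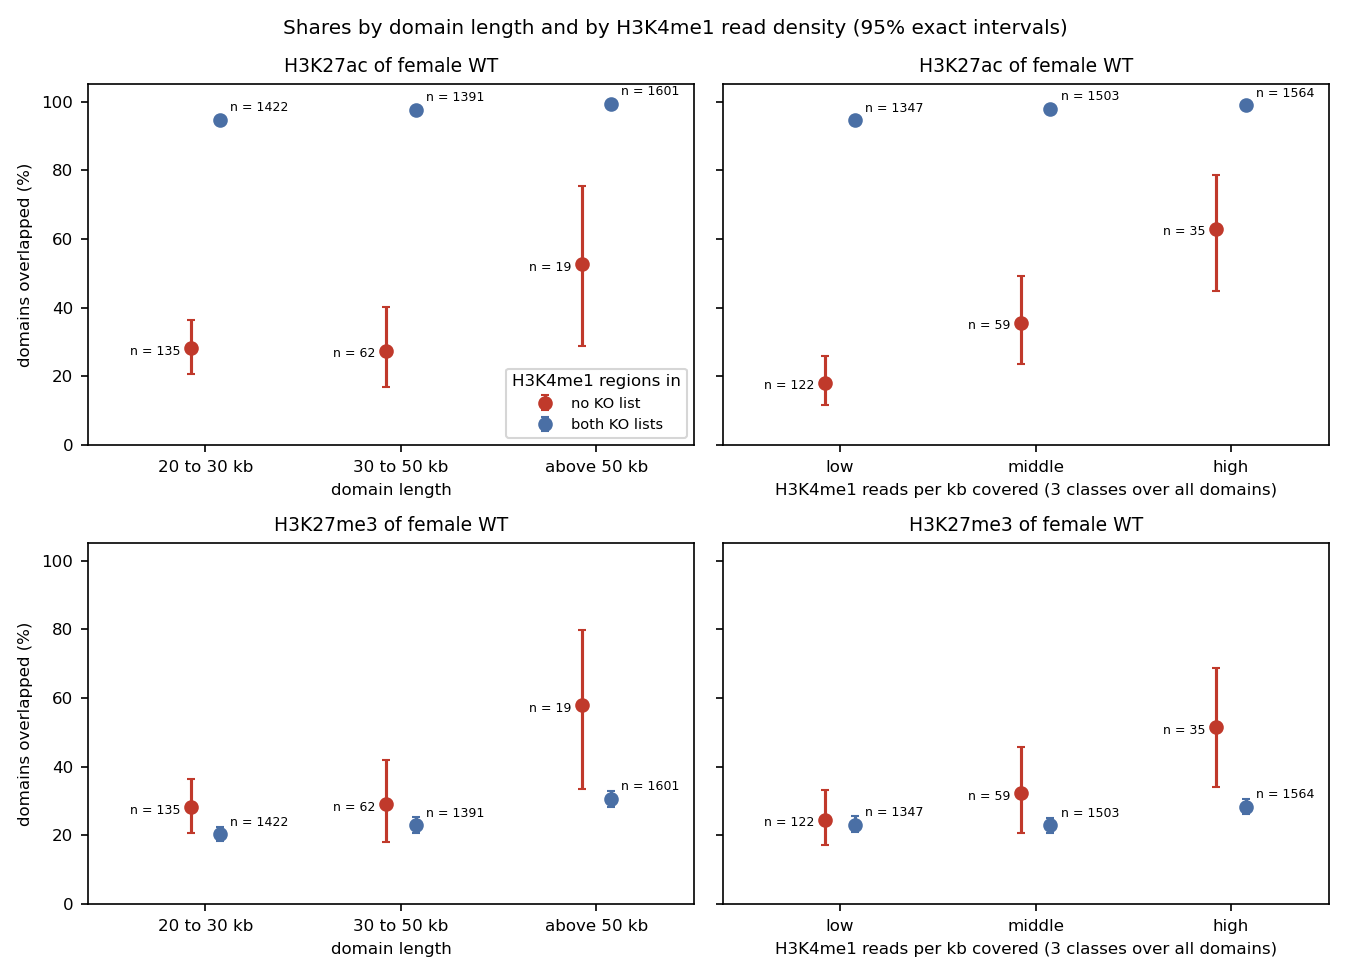
Share of domains overlapped by H3K27ac (top) and H3K27me3 (bottom) of female WT (vertical axes, %), by domain length (left) and by H3K4me1 reads per covered kb (right), for domains in no KO list and in both; whiskers are exact 95% intervals. H3K27ac lies below the other class in every bin, with the members rising from 18.0% to 62.9% by density, and the H3K27me3 intervals of the 2 groups overlap in the lower bins.

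The male WT line was not used to choose the members, and it held a smaller share of them, and less of their H3K4me1 length, than of the domains held in both KO lists. It covered 59.1% of the members' H3K4me1 bases, against 75.8% in the domains held in both KO lists, and it met 64.2% [61.1 to 67.3] of their 953 single regions against 80.6% [80.1 to 81.0]. More than 90% of the covered length was found in male WT for 46 members, more than 50% and up to 90% for 78, a smaller part for 71 and none for 21. A joined male WT domain above 20 kb was met by 113 members, and for 99 of these, 45.8% of all members [39.1 to 52.7], at least 1 such domain also held no region of either KO list. Taken from the male side, 407 male WT domains (6.63% of 6138) were free of both KO lists and 98 of them met a member. The median share covered in male WT was 77.1% for the members with H3K27ac alone, 63.1% for those with H3K27me3 alone and 49.3% for those with none of the 3 marks. Of the 21 members without male WT, the largest was the chromosome 4 domain at 100505801 with 34.8 kb in 11 regions. Next were chromosome 10, 85550801 to 85579600, with 18.6 kb and chromosome 6, 148329401 to 148356000, with 16.6 kb, 8.40 kb of it in H3K27me3. All 3 lacked H3K27ac and H3K4me3. Across the 216 members, the percentage covered in male WT did not follow covered length in female WT (Spearman rho 0.039, a description over sites of the same 2 libraries).

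**Figure D5:**
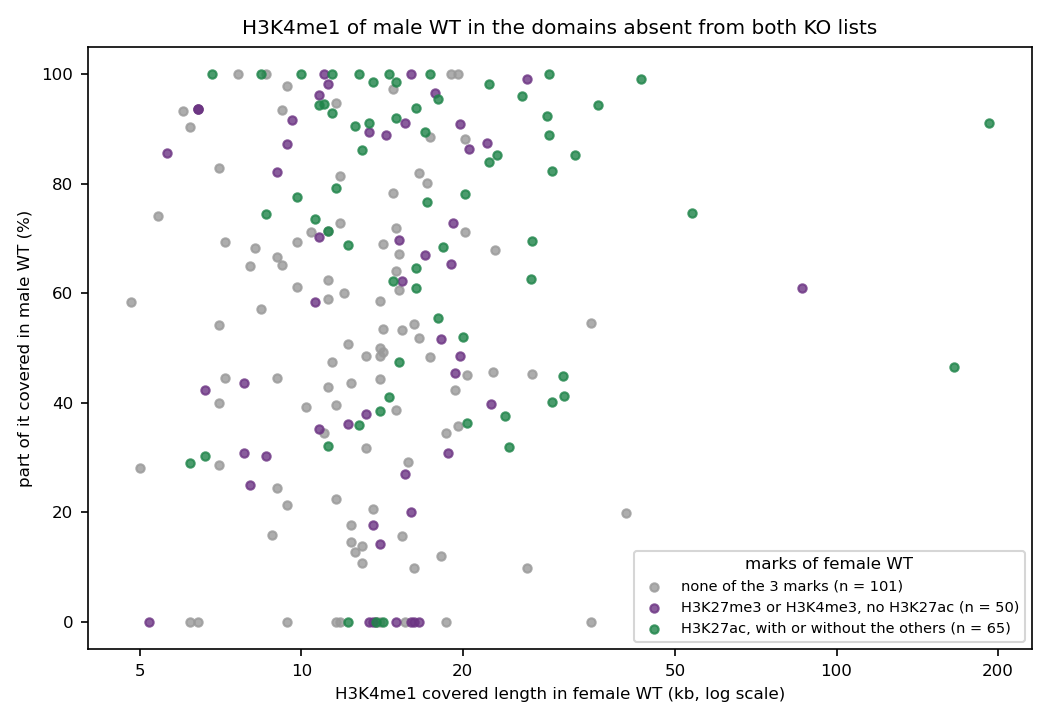
Each point is 1 of the 216 members: H3K4me1 covered length in female WT (kb, log scale) against the percentage of it covered in male WT, coloured by the marks of female WT. Values spread from 0 to 100%, 21 members sit at 0, and the member with the largest covered length lies at 91.1%.

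KDM6A and MLL4, the enzymes named in the study's design, were listed at few members. KDM6A of female WT lay on 24, 11.1% [7.25 to 16.1], against 18.5% of all 5197 domains and 19.4% [18.2 to 20.6] of those held in both KO lists. At 20 to 30 kb the 2 groups gave 8.89% [4.68 to 15.01] and 9.63% [8.15 to 11.3], a difference within counting error. MLL4 of female WT lay on 15, 6.94% [3.94 to 11.2], against 17.4% of all domains and 18.9% [17.7 to 20.1] of those held in both. At 20 to 30 kb it lay on 5.19% [2.11 to 10.4] and 8.16% [6.79 to 9.70], again with overlapping intervals.

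The KDM6A members were led by chromosome X, 75776401 to 75804400, with 183 reads in 2 regions. That domain had 3 H3K4me1 regions over 13.8 kb and none of H3K27ac, H3K4me3, H3K27me3 and MLL4, and neither male list had H3K4me1 in it. Chromosome 19 held the next, at 17806001 to 17838400 (140 reads, none of the other marks). A further one there, at 18866401 to 18899600, had 121 reads and 4 kb of H3K27ac. Chromosomes 15 and 19 contributed 5 of the 24, or 29.4% [10.3 to 56.0] of the 17 members there against 9.55% [5.85 to 14.5] of the 199 elsewhere. Among domains held in both KO lists the same split was 51.4% and 16.6%, and the part of these chromosomes in the KDM6A values was not tested. The split by these chromosomes was not among the planned results. For MLL4, chromosome 19, 23106401 to 23141200, led with 85 reads in 1 region. The 26.4 kb of H3K4me1 in that domain were free of the other marks. Chromosome 18, 81429401 to 81450400, followed with 84 reads. Male WT covered 9.85% and 25% of the H3K4me1 length of these 2 domains. The lowest count of any listed region in female WT was 17 reads for KDM6A and 22 for MLL4. KDM6A was listed at 16.9% [8.76 to 28.3] of the members with H3K27ac and 8.61% [4.66 to 14.3] of those without, and MLL4 at 12.3% [5.47 to 22.8] and 4.64% [1.88 to 9.32]; both pairs of intervals overlap.

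In the female KO line the 2 antibodies were listed at few members as well. KDM6A was at fewer members than in WT and MLL4 at about as many, from lists of unlike size. The KDM6A list held 2847 regions in female WT and 5961 in female KO, and the MLL4 list 2130 and 13152. Member counts of the 2 lines are thus not on an equal footing. What a KDM6A region shows is limited by the many listed in a line labelled KO. KDM6A in this line, labelled as lacking the protein's gene, lay on 6 members, 2.78% [1.03 to 5.95], against 22.3% of all domains and 25.1% [23.8 to 26.4] of those held in both. MLL4 of KO lay on 18, 8.33% [5.01 to 12.9], against 44.8% of all domains and 50.5% [49.1 to 52.03] of those held in both. For domains found in male KO only the KDM6A and MLL4 shares were 8.02% and 13.1%. For those found in female KO only they were 8.93% and 19.6%. Together, 22 members, or 10.2% [6.49 to 15.01], held a region of either in female KO. Regions were listed there, so reads of female KO did map inside these 22 domains; for the other members the lists do not show whether DNA was present.

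By the rule, the members stood in stretches without KO regions. Distances to KO regions come from the lists that chose the members, so they are a description, with no other class set beside them. The nearest region of either KO list was a median of 40.3 kb from a member's edge (quartiles 20.35 and 97 kb, range 2.80 to 1321.8 kb). Of the members, 197 were more than 12500 bp from any. The KO-free stretch around a member had a median of 366.7 kb in female KO and 196.7 kb in male KO. The longest in male KO, 4851.4 kb, surrounded the chromosome X domain named above, and 3277.6 kb around it were free in female KO. Along the order of female WT domains 158 of the 216 members stood singly, and 58 stood in 27 runs of 2 or 3. The chromosome 7 leader was flanked by members on either side, and the 3 spanned 81410401 to 81813400 with 239.0 kb covered. By chromosome, members made up from 1.20% of the female WT domains on chromosome 8 [0.249 to 3.48] to 6.67% on chromosome 18 [3.49 to 11.4], and chromosome 4 held the highest number, 20.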

How the data were processed

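The deposited lists give, per region, a chromosome, start, end and a whole number, read here as its read count because the values and the column order match SICER's island format. Bowtie 1.1.2, SICER 1 and build mm9 are named in the submitters' processing notes, without a role; no control library, threshold or total depth is given in the sources used here. All 313566 regions of the 11 lists had borders on 200 bp steps. The input library was not analysed here. Absence from a list can mean signal under the caller's threshold.

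Joining and overlaps used numpy 2.4.6 and pandas 2.3.3, and intervals scipy 1.17.1, under Python 3.11.15; figures used matplotlib 3.10.9. The steps were tested on simulated data and checked against bedtools 2.31.1. A KO region anywhere between a domain's ends removed it; for the other lists an overlap is 1 bp between another list and the H3K4me1 regions of a domain; reads named for a list are those of the whole regions met, and reads are not compared between lists. Positions count from 1. Domains named are the leaders by covered length (10), by H3K27ac, H3K27me3 and H3K4me3 length and by KDM6A and MLL4 reads (5 each), the 3 largest without male WT and those beside 20 kb; domains named otherwise, such as neighbours, were chosen after their values were seen. Members and lists were chosen with earlier results of these data known. No annotation of mm9 was used, so no gene is assigned and no sequence shown. With 1 library per group, groups were not tested. Alternatives changed the joining distance, minimum length, KO rule, overlap rule, list sizes, chromosomes and the joined list. The chromosomes left out were X in one alternative and 1, 6, 15, 17 and 19 in another. Effects of the alternatives are in the closing section.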

Additional observations from a re-analysis of the deposited data

How the results depend on the processing

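The number of domains tested changed with the settings, and the main run gave 216 KO-free domains among 5197. Joining at 5 kb gave 93 among 3021. Of the 93, 95.7% met male WT, 45.2% H3K27ac, 23.7% H3K4me3 and 12.9% MLL4. Joining at 25 kb gave 306 among 5880, with H3K27ac on 20.3% of the 306. A minimum of 40 kb gave 32 among 2349. Of the 32, 46.9% met H3K27ac, 43.8% H3K27me3, 21.9% KDM6A and 15.6% MLL4. Allowing KO regions on up to 10% of the covered length gave 307 among 5197, with H3K4me3 on 25.1% of the 307. H3K4me1 lists of equal number of regions gave 176 among 3943, with H3K27ac on 43.2% and H3K4me3 on 21.6% of the 176. With male WT as the joined list, the 407 domains met female WT in 67.6% of cases, H3K27ac in 19.2%, H3K27me3 in 40.05%, KDM6A in 5.16% and MLL4 in 2.46%. The cause was not tested.

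Against the domains held in both KO lists, H3K27ac, H3K4me3, KDM6A, MLL4 and the other WT line were lower under all 11 alternatives run. H3K27me3 was higher under 10 and reversed at 25 kb joining, by -2.22 percentage points. The part of the H3K4me1 length in H3K27me3, examined after it was seen, ran from 11.2% to 24.4%, above the domains held in both under each of the 9 settings run. No paired analysis was possible because each group held 1 library, all carry replicate number 1, and the results come from no test. The unknown depth limits what absence from a list shows.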
